A study of Homo sapiens with 12 samples.

Results

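Of 328658 regions of open chromatin found in 3 acute myeloid leukaemia lines, 408 were called in every MOLM13 library and in no library of MV4-11 or OCI-AML3. They were chosen by the called peaks themselves: peaks of all 12 libraries on chromosomes 1 to 22 were merged where they shared at least 1 bp, and a region was kept with a peak in all 4 MOLM13 libraries and none in the other 8. Such regions were 1% of the 40614 regions called in all 4 MOLM13 libraries. By the same rule, 6541 regions belonged to MV4-11 alone and 810 to OCI-AML3 alone. Since the peaks chose the members, their presence in MOLM13 and absence elsewhere are a description and carry no test.

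The groups were MOLM13, MV4-11 and OCI-AML3 cells given 500 nM VTP50469 for 16 h, each beside control cells of the same line, 2 libraries per group and 6 groups in all. The MLL1 (KMT2A) gene, of a histone methyltransferase, is rearranged in both MOLM13 and MV4-11, whereas OCI-AML3 has a mutant NPM1. VTP50469 blocks the contact of menin with MLL1. All cells were frozen before the nuclei were isolated. Each line descends from 1 patient, and MV4-11 was grown in IMDM whereas MOLM13 and OCI-AML3 were grown in RPMI, so leukaemia subtype, donor genome and, for MV4-11, medium cannot be told apart. Nothing in the labels states that the 2 libraries of a group came from separate cultures, so the p-values measure only the spread between these libraries.

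In ATAC-Seq, the transposase Tn5 inserts sequencing adapters where DNA is not covered by nucleosomes, and a peak marks a site of many insertions. Sites that are open in most cells are mainly the promoters of widely used genes, whereas sites that differ between cell types are mostly enhancers, away from promoters, bound by transcription factors of that lineage. tRNA genes, which RNA polymerase III transcribes from promoters inside the gene, are also open where they are used.

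The 12 libraries held 67424 to 141695 peaks on these chromosomes, with a median of 9 to 13 reads over the summit, and the 4 MOLM13 libraries held 77753 to 100831. The lowest 1% of peaks in a library rested on at most 4 or 5 reads. A region with no peak was thus not called at this depth and is not shown to be closed. Among promoters of marker genes, 7 of 12 myeloid markers were open in all 4 MOLM13 libraries (SPI1, CEBPA, CEBPB, MPO, LYZ, ITGAM and LYN), against 1 of 8 T cell markers (CD8A), 1 of 8 B cell markers (CD22), 0 of 8 erythroid markers and 2 of 8 epithelial or stromal markers (COL1A1 and VIM). Of the regions called in all 4 MOLM13 libraries, 3179 (7.83%) were also called in all 4 MV4-11 libraries and in no OCI-AML3 library, and 83 (0.204%) were called in all 4 OCI-AML3 libraries and in no MV4-11 library; MV4-11 libraries held more peaks than those of OCI-AML3 (112922 to 141695, against 67424 to 92554).

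Sequence could be shown for members over start sites covered by RefSeq promoter windows (250 bases before to 50 after the start, GRCh38.p14). There were 26 such windows. The 5 below are those of the strongest protein-coding promoters among them that lay wholly inside a member. They are shown because in 1 of them, ADPRHL1, a 10-base unit recurs at intervals along the window. ADPRHL1 encodes an ADP-ribosylhydrolase-like protein of heart muscle. In its window the capitals mark this unit. In the other windows, of MCTP2 (a calcium-binding membrane protein), CNTN4 (a neuronal adhesion protein), SPAG6 (a protein of the ciliary axoneme) and NCKAP1 (a subunit of the WAVE complex, which drives actin branching), the capitals mark the GC box GGGCGG or its reverse complement CCGCCC, the site of Sp and KLF factors.
ADPRHL1, chr13:113449109-113449408, minus strand: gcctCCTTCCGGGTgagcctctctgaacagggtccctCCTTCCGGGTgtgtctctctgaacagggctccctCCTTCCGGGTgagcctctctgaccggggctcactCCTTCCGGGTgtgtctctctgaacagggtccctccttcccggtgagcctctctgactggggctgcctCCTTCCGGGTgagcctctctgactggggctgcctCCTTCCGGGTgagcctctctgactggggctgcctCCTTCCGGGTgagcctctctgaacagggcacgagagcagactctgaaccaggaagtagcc
MCTP2, chr15:94231311-94231610, plus strand: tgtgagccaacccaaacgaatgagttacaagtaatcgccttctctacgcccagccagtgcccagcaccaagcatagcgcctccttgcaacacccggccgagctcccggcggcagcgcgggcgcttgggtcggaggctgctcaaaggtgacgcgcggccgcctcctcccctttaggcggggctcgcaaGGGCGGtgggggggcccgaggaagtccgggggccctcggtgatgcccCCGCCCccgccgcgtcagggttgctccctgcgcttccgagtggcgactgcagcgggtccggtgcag
CNTN4, chr3:2098616-2098915, plus strand: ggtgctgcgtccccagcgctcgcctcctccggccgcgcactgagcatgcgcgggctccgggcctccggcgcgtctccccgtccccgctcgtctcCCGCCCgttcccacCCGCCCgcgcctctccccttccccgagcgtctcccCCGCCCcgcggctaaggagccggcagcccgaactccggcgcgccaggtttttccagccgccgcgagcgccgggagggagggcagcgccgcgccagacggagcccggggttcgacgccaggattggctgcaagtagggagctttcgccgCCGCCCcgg
SPAG6, chr10:22345246-22345545, plus strand: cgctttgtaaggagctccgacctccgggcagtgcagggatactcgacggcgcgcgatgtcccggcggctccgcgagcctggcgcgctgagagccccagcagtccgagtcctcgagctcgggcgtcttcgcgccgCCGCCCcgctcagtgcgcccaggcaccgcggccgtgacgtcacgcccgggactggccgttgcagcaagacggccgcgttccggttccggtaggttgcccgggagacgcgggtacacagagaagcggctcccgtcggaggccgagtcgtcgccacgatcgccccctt
NCKAP1, chr2:183038408-183038707, minus strand: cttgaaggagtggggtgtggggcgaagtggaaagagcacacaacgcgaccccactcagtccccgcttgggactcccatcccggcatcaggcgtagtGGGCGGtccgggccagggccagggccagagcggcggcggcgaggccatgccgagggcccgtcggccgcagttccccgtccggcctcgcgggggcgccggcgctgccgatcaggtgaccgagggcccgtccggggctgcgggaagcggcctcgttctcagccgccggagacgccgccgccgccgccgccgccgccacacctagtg

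The ADPRHL1 window was a tandem repeat. The unit CCTTCCGGGT occurred 7 times, with starts 33 to 67 bases apart and a median spacing of 34 bases. Of all 33558 promoter windows, 502 (1.5%) held some 10-base sequence at least 7 times. The NCKAP1 window held one 6 times, as overlapping copies in a run of gcc triplets. Each copy of the ADPRHL1 unit contains TTCCGG, the reverse complement of CCGGAA, the core letters recognised by ETS factors. The core matched 7 times on either strand in this window. It was present at all in 17.3% of windows, and 3 of the 33558 windows, this one included, held as many copies. The longer forms searched, CGGAAGT for ETS factors and GAGGAAGT for PU.1, had no match in the ADPRHL1 window. A match is a description of the reference sequence, and the number of repeats in the MOLM13 genome was not analysed here.

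The 26 windows belonged to 22 members, since start sites of neighbouring or alternative transcripts can give several windows, some of them overlapping. Of them 10 lay wholly inside a member, and 3 shared fewer than 60 bases with it, so part of the sequence described lies outside members. Their median GC content was 62.8% (n = 26), against 66% for the 13549 windows under other regions called in all 4 MOLM13 libraries and 58.7% for all windows. The GC box (GGGCGG, both strands) lay in 15 of 26 (57.7%), against 72% under the other regions and 45% of all windows. The RUNX letters TGTGGT lay in 5 windows of 3 members (19.2% of windows, against 9.12% and 13.1%) and the AP-1 letters TGANTCA in 3 (11.5%, against 4.76% and 7.68%). The ETS form CGGAAGT lay in 0 of 26, against 13.9% and 6.83%. These motifs are a selection from a longer list that was searched without a test, and the others went either way. The KLF letters GGGTGGG lay in 30.8% (against 21.4% and 19.4%) and the MYB letters TAACNG in 26.9% (against 17% and 20.7%). The MEIS letters TGACAG lay in 0 of 26 (against 12.55% and 15.8%) and the interferon type AANNGAAA in 11.5% (against 15.6% and 22.8%). With 26 windows, a single window moves such a share by several percentage points. Sequence of members away from start sites was not analysed here.

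The MOLM13-only regions were narrow and weak. Their median width was 329 bp, against 610 bp for the 40206 other regions called in all 4 MOLM13 libraries. In the VTP50469 libraries the median fold of the summit over the local background of the same library was 5.25 and 5.94, and in the control libraries 5.34 and 5.6. Those of the other regions were 7.39 and 8.58 in the VTP50469 libraries and 7.01 and 7.73 in the control libraries. For each region, the lowest −log10 q of its 4 peaks gives the strength of its weakest call. The median of this value was 3.49 in members and 6.68 in the other regions, and 95 members had a −log10 q of at least 5 in all 4 libraries. Members thus lay nearer to the calling threshold than the other regions did.

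Regions just outside the rule resembled members where all 4 MOLM13 libraries called them, and were weaker and narrower where fewer did. Those called in all 4 MOLM13 libraries and exactly 1 of the other 8 numbered 392 and had a median lowest −log10 q of 3.31 and a median width of 346.5 bp. A further 819 regions had a peak in 3 of 4 MOLM13 libraries and in none of the other 8, with a median lowest −log10 q of 2.78 and a median width of 241 bp. Both VTP50469 libraries and neither control library called 767 regions of MOLM13 alone, and both control libraries and neither VTP50469 library called 435. The count of 408 depended most on the MOLM13 libraries, and leaving out any library loosens the rule. Without the first MOLM13 control library it was 721 and without the first MOLM13 VTP50469 library 620, both over 1.5 times as many. Without 1 library of the other lines it was 424 to 514.

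In summit position and in fold, the members varied between libraries about as much as the other regions. Both sets needed a called peak in all 4 libraries, which limits how low a fold can be, and members lay nearer to that limit. Like ratios of folds are therefore partly set by the calling. The strongest summits of the 4 MOLM13 libraries lay within a median span of 100.5 bp in members and 89 bp in the other regions, and within 100 bp of each other in 204 of 408 members (50%) and 55.5% of the other regions. The highest of the 4 folds was a median of 1.49 times the lowest in members and 1.48 times in the other regions, and over 2 times in 44 members (10.8%) and 10.6% of the other regions.

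Most members lay away from promoters. Within 1 kb of a start site lay 43 members (10.5%, exact 95% interval 7.73% to 13.9%), 32 of them at protein-coding genes, whereas 209 (51.2%) lay in gene bodies and 156 (38.2%) between genes. Of the other regions called in all 4 MOLM13 libraries, 30% (29.6% to 30.5%) lay at promoters. The low share was not particular to members. Regions called in all 4 MOLM13 libraries and in 1 to 7 of the other 8 lay at promoters in 7.32% to 13.2% of cases, and those called in all 12 in 45.1%. Of regions found in MV4-11 alone 4.53% (4.03% to 5.06%) and in OCI-AML3 alone 11.4% (9.25% to 13.7%) lay at promoters. The intervals cover counting error only. The median distance to a start site was 26.4 kb in members and 11.9 kb in the other regions, and 77 members (18.9%, against 8.66%) lay over 100 kb from one. The annotation used gives gene bodies without exons, so exons and introns were not separated.

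**Figure D1:**
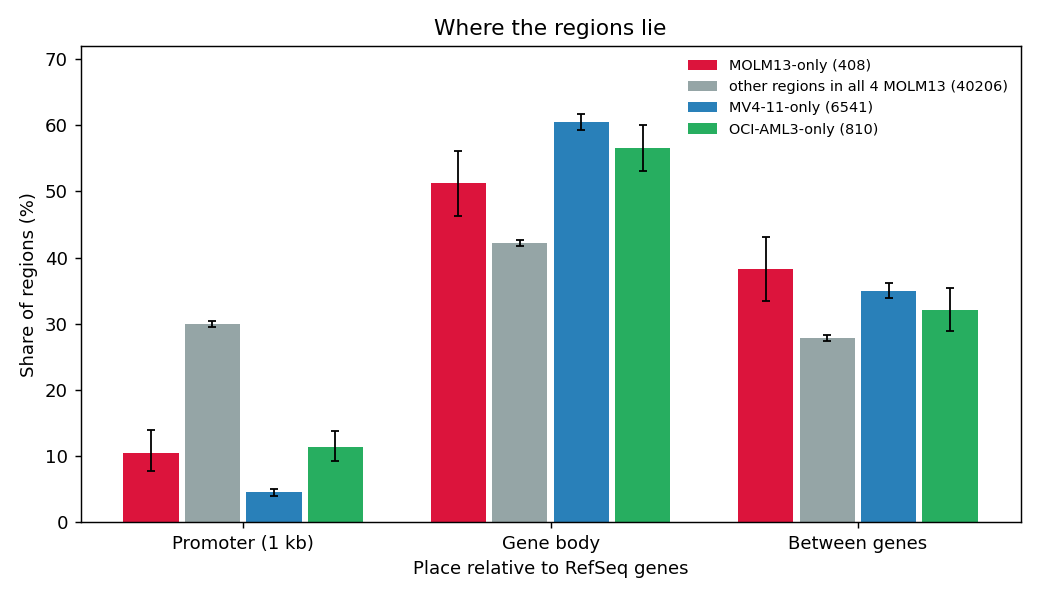
Share of regions (%) at promoters (within 1 kb of a start site), in gene bodies and between genes, for the 408 MOLM13-only regions, the 40206 other regions called in all 4 MOLM13 libraries, and the 6541 and 810 regions of MV4-11 and OCI-AML3 alone; bars are shares and lines exact 95% intervals. MOLM13-only regions were at promoters in 10.5%, against 30% of the other MOLM13 regions.

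Many members had open chromatin of the other lines close by. The nearest peak of MV4-11 or OCI-AML3 lay at a median distance of 3.07 kb (4.26 kb for MV4-11, 6.26 kb for OCI-AML3), and at most 87.7 kb away. Within 1 kb there was such a peak for 113 members and within 300 bp for 52. All 8 libraries of the other lines had a peak within 1 kb of 18 members. An example is the member at TTK, the mitotic checkpoint kinase (chr6:80004856-80005098), which lay 92 bp from the nearest peak of another line. By contrast, a member inside DACH1 (chr13:71776926-71777521) was the one most isolated, 87.7 kb from any other-line peak.

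The strongest member by the lowest −log10 q (19.7) was a region of 125 bp at chr1:632091-632215, inside the pseudogene MTCO1P12, a nuclear copy of a mitochondrial gene, and inside the annotated gene LOC102724250. It stood apart from every other member in depth. It had 967 and 860 summit reads in the VTP50469 libraries and 836 and 911 in the control libraries, with folds of only 1.57 and 1.43 against 1.53 and 1.51. All 8 libraries of the other lines had a peak within 1 kb of it, the nearest 259 bp away. Reads of mitochondrial DNA can align to such copies, and their part in this region was not tested.

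The next strongest members had folds near 10 and few reads. A region between genes over the tRNA gene TRS-AGA4-1 (serine; chr6:27553089-27553813) had folds of 9.59 and 9.87 in the VTP50469 libraries and 12.4 and 9.71 in the control libraries, on 25 to 31 reads. The ADPRHL1 promoter (chr13:113448898-113449813), which holds the repeat shown above, had folds of 11.8 and 9.47 in the VTP50469 libraries and 9.39 and 10.6 in the control libraries, on 26 to 40 reads. One MV4-11 library had a peak within 1 kb of it, 120 bp away, and no OCI-AML3 library did. A region between genes, 141 kb from the nearest start site, that of NSMAF (an adaptor of TNF receptor signalling; chr8:58801178-58801894), had folds of 10.9 and 12.1 in the VTP50469 libraries and 8.91 and 12 in the control libraries. In each of these 3 the folds of both arms overlapped.

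The remaining strong members were spread over different kinds of site. A region inside MACROD2, a mono-ADP-ribosylhydrolase gene (chr20:16021010-16021634), had folds of 11.7 and 15.3 in the VTP50469 libraries and 8.79 and 12.8 in the control libraries, and lay 19.2 kb from the nearest MV4-11 peak and 60.1 kb from the nearest OCI-AML3 peak. A region in ACOT13, a thioesterase of fatty acid metabolism (chr6:24668553-24669000), had folds of 5.72 and 8.39 in the VTP50469 libraries and 8.28 and 6.24 in the control libraries. That in ELOVL6, a fatty acid elongase (chr4:110193877-110194152), had folds of 6.28 and 8.73 in the VTP50469 libraries and 6.52 and 5.99 in the control libraries. They lay 1.48 and 4.46 kb from the start of their gene. The lncRNA gene LINC01191 (chr2:114007521-114007794) held a member with folds of 9.73 and 9.58 in the VTP50469 libraries and 8.62 and 10.3 in the control libraries. The region at chr11:119783906-119784364, between genes, had folds of 7.81 and 9.44 in the VTP50469 libraries and 9.25 and 11.3 in the control libraries. The MCTP2 promoter (chr15:94230958-94231704) had folds of 8.79 and 7.9 in the VTP50469 libraries and 7.79 and 10.2 in the control libraries. In ELOVL6 1 VTP50469 library lay above both control libraries and the other between them, and in none of these 6 were the arms separate.

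**Figure D2:**
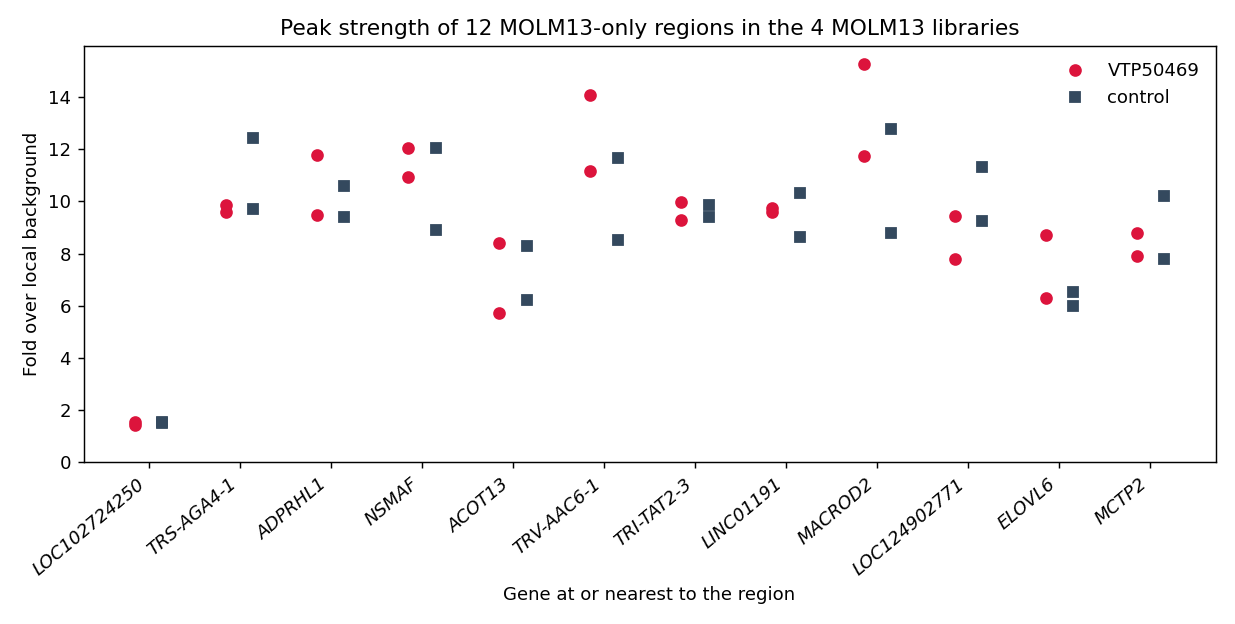
Fold of the summit over the local background (y axis) in the 2 VTP50469 libraries (red circles) and the 2 control libraries (dark squares) of MOLM13 for the 12 members with the highest lowest −log10 q, named by the gene or tRNA gene at or nearest to them. The mitochondrial-like copy on chromosome 1 sits near 1.5 in all 4 libraries, and the other 11 sit between 5.72 and 15.3.

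Of the 43 members at promoters, 32 were at protein-coding genes. After ADPRHL1 and MCTP2 the strongest were KCNB2, TTK, CNTN4, AGAP1, SHISA2 and IGSF9B. KCNB2, a voltage-gated potassium channel, had folds of 5.73 and 6.67 in the VTP50469 libraries and 7.32 and 6.9 in the control libraries, with 2 OCI-AML3 libraries called within 1 kb. AGAP1, a GTPase-activating protein of membrane traffic, held 2 members within 1.45 kb at its start, of which the stronger (chr2:235493711-235494570) had folds of 6.84 and 5.98 in the VTP50469 libraries and 5.64 and 5.44 in the control libraries, and lay 29.8 kb from the nearest peak of another line. CNTN4 had folds of 5.84 and 6.63 in the VTP50469 libraries and 6.26 and 6.91 in the control libraries, with 1 OCI-AML3 library called within 1 kb. SHISA2, which in mouse and frog restrains Wnt and FGF signalling, had 5.96 and 6.38 in the VTP50469 libraries and 6.8 and 6.43 in the control libraries, and no other-line peak within 1 kb. The member at TTK had 4.58 and 5.69 in the VTP50469 libraries and 5.67 and 4.97 in the control libraries, and all 8 other libraries had a peak within 1 kb.

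At IGSF9B the members covered both the promoter and the gene body. This gene of an adhesion protein of inhibitory synapses had a promoter peak in 4 of 4 MOLM13 libraries and in 0 of 4 libraries of MV4-11 and of OCI-AML3. Its promoter region was itself a member, so the rule fixed this pattern for that region. The promoter region (chr11:133956727-133957220) had folds of 6.09 and 6.75 in the VTP50469 libraries and 5.7 and 5.77 in the control libraries. Of the 5 regions in its locus (the gene with 5 kb on each side) that were called in all 4 MOLM13 libraries, 3 were members. One of the 3, inside the gene, had a peak of all 8 other libraries within 1 kb.

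DACH1 held the most members of any gene. This gene of a transcriptional regulator related to fly dachshund had 4 members among the 8 regions of its locus called in all 4 MOLM13 libraries, and no region called in all 12. Its promoter, however, had a peak in 4 MOLM13, 4 MV4-11 and 3 OCI-AML3 libraries. The members lay in the gene body, 46.1 to 167 kb from the start. The strongest had folds of 8.13 and 8.3 in the VTP50469 libraries and 7.63 and 8.64 in the control libraries. The second (chr13:71797577-71797996) had 8.3 and 11.7 in the VTP50469 libraries and 6.73 and 6.22 in the control libraries. Only 2 regions of the locus were called in all 4 MV4-11 libraries and 1 in all 4 OCI-AML3 libraries. DACH1 is 429 kb long and lies on chromosome 13, which had the highest share of members of any chromosome (38 of 1268 regions, 3%).

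The same form, a promoter called in other lines and members in the gene body, was seen at EFNA5, ZNF521 and ADGRV1. EFNA5, an ephrin ligand of axon guidance, held 3 members of 10 regions, and ZNF521, a zinc finger factor of haematopoietic progenitors, held 3 of 5. The strongest EFNA5 member (chr5:107633205-107633770) had folds of 8.82 and 8.41 in the VTP50469 libraries and 7.75 and 6.93 in the control libraries. ADGRV1, an adhesion receptor of hair cells, held 2 of 12, MACROD2 2 of 14, and the lncRNA genes LINC01191 and LOC100128317 2 of 4 and 2 of 3. The promoters were called in 4 MOLM13, 3 MV4-11 and 3 OCI-AML3 libraries at EFNA5, in all 12 at ZNF521 and in 4, 3 and 1 at ADGRV1. Regions called in all 4 MV4-11 libraries numbered 7 at EFNA5, 1 at ZNF521 and 8 at ADGRV1. They numbered 3 at LINC01191, 2 at LOC100128317 and 25 at MACROD2, so the MACROD2 locus held more of them in MV4-11 than the 14 in MOLM13.

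Members seldom lay next to each other. Chained within 20 kb they formed 12 groups, each of 2 members. The 6 groups whose weaker member was strongest were 3 in the histone and tRNA gene cluster of chromosome 6, the lncRNA pairs LINC01886 with LINC01885 and LINC01191 on chromosome 2, and the AGAP1 promoter. The 2 members of LINC01191 lay within 0.71 kb.

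Few members lay in loci of blood cell genes. The 14 gene lists used held 370 genes, of which 357 were found in the annotation. In 11 of them no member lay in a locus: monocyte and macrophage genes (0 of 55 regions called in all 4 MOLM13 libraries), granulocyte (0 of 30), mast cell, basophil and eosinophil (0 of 11), dendritic cell (0 of 33), T and NK cell (0 of 37), B cell (0 of 31), erythroid and megakaryocyte (0 of 34), myeloid transcription factors (0 of 110), cytokines, chemokines and receptors (0 of 83), adhesion and matrix (0 of 111) and housekeeping genes (0 of 28). At a background of 1%, about 1 member per 100 regions, a list of this size holds few or none. The stem and progenitor list held 1 of 56, in NPR3, a natriuretic peptide receptor. The MLL fusion targets held 2 of 156 (1.28%), 1 each in IGF2BP2, an RNA-binding protein, and MEF2C, a transcription factor of myeloid and muscle cells, both in gene bodies of which at least 1 start site was called in all 12 libraries.

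The list of neuronal and axon guidance genes held 6 of 182 regions (3.3%). Of these 3 were the EFNA5 members, and the others lay in EPHA4, a receptor of ephrins, LRP1B, a lipoprotein receptor, and GRID1, a glutamate receptor subunit. None of the 6 lay within 5 kb of a start site of these genes. The loci of LRP1B and GRID1 held more regions called in all 4 MV4-11 libraries (17 and 16) than in all 4 MOLM13 libraries (9 and 8). At EFNA5 and EPHA4 it was the other way (7 and 1 in MV4-11, against 10 and 3 in MOLM13). The GRID1 promoter had a peak in 4 MV4-11 libraries, 1 OCI-AML3 library and 0 MOLM13 libraries. The member in GRID1 was the weakest of all 408, with a lowest −log10 q of 1.3 and folds of 3.12 and 5.17 in the VTP50469 libraries and 5.58 and 3.37 in the control libraries. Since 3 of the 6 members came from 1 gene, the share rests largely on EFNA5.

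tRNA genes, which were looked at after the strongest members had been seen, were overlapped by 14 of the 408 members (3.43%), against 185 of the 40206 other regions called in all 4 MOLM13 libraries (0.46%), 0 of 6541 regions of MV4-11 alone and 0 of 810 of OCI-AML3 alone. The overlap is of the merged region, so the peak of a single MOLM13 library need not reach the tRNA gene. The 14 included 3 of the 12 strongest members, and 10 had a −log10 q of at least 5 in every MOLM13 library. The share was lower in regions that even 1 other library called. It was 1.53% (6 of 392) of regions called in 1 of the other 8 libraries and 0.253% to 0.662% of those called in 2 to 8.

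The tRNA genes under members served different amino acids. On chromosome 6 they were TRS-AGA4-1 and TRS-TGA2-1 (serine), TRV-AAC6-1 and TRV-AAC3-1 (valine), TRI-TAT2-3 and TRI-AAT5-3 (isoleucine), TRK-CTT2-4 and TRK-TTT9-1 (lysine), TRF-GAA1-2 (phenylalanine) and TRX-CAT1-5. The other 4 were TRN-GTT2-2 on chromosome 1, TRL-AAG2-1 on chromosome 5, TRV-TAC3-1 on chromosome 10 and TRP-CGG1-2 on chromosome 16. The folds given here are those of the strongest peak of the region, which need not cover the tRNA gene in each library. The region at TRV-AAC6-1 (chr6:28735124-28735575) had folds of 14.1 and 11.2 in the VTP50469 libraries and 11.7 and 8.5 in the control libraries. TRI-TAT2-3 (chr6:27630666-27631775) had 9.98 and 9.27 in the VTP50469 libraries and 9.4 and 9.88 in the control libraries. TRN-GTT2-2 (chr1:161427708-161428501) varied most between libraries of an arm, with 5.19 and 12 in the VTP50469 libraries and 10.3 and 5.39 in the control libraries. Over the 14, folds ran between 3.81 and 14.1 in the VTP50469 libraries and between 3.45 and 12.4 in the control libraries, and the nearest other-line peak lay at a median of 2.11 kb (0.183 to 19.7 kb).

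Among tRNA genes as a whole, MOLM13 libraries also had the most with a peak. Of 439 tRNA genes, 227 and 236 had a peak in the VTP50469 libraries of MOLM13 and 226 and 235 in its control libraries. In MV4-11 they were 179 and 188 in the VTP50469 libraries and 205 and 206 in the control libraries, and in OCI-AML3 157 and 152 in the VTP50469 libraries and 157 and 160 in the control libraries. The MOLM13 libraries were the highest. Peaks overall numbered 77753 to 100831 in MOLM13, 112922 to 141695 in MV4-11 and 67424 to 92554 in OCI-AML3. The part of depth and peak number in these counts was not tested. Without the tRNA genes under members, the MOLM13 numbers were 216 and 224 with VTP50469 and 212 and 224 in controls, of 425 genes. Of the 155 tRNA genes on chromosome 6, 84 and 89 had a peak with VTP50469 and 87 and 91 in control MOLM13 libraries, against 53 to 68 in MV4-11 and 42 to 48 in OCI-AML3. Of the 284 on other chromosomes, 139 to 147 had one in MOLM13, 126 to 138 in MV4-11 and 109 to 116 in OCI-AML3. The gap between MOLM13 and MV4-11 was wider on chromosome 6, but both splits still count the tRNA genes under members. By the rule those had no peak in the other lines, and 10 of the 14 members at tRNA genes lay on chromosome 6. Part of the gap there was therefore fixed by the rule. These numbers use the same peaks as the rule and carry no test.

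**Figure D3:**
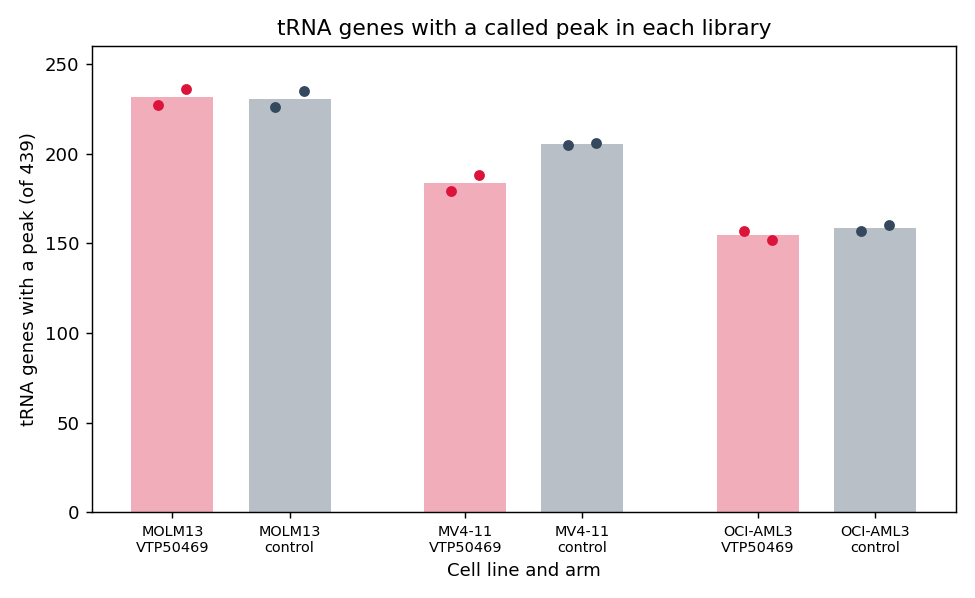
Number of the 439 annotated tRNA genes with a called peak (y axis) in each library, by line, with VTP50469 (red) left of control (dark); points are libraries and bars the mean of 2. The 4 MOLM13 libraries lie between 226 and 236 and the 8 others between 152 and 206.

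The spread over chromosomes was uneven. Chromosome 6 held 61 members, 1.92% of its regions called in all 4 MOLM13 libraries, chromosome 13 held 38 (3%), chromosome 8 held 42 (1.34%), chromosome 18 held 14 (1.99%), and chromosome 20 held 17 (1.44%). Chromosome 22 held 0 of 600, chromosome 17 held 4 (0.245%) and chromosome 9 held 6 (0.396%). On chromosome 6, 15 of 233 regions (6.44%) between 25 and 30 Mb, which hold the main histone and tRNA gene cluster, were members, 10 of them at a tRNA gene, against 46 of 2946 (1.56%) elsewhere on the chromosome.

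Local background differed between the lines on some of these chromosomes. The median background under the peaks of a chromosome, relative to the whole library, was 1.37 to 1.4 on chromosome 8 in the MOLM13 libraries, against 1.1 to 1.13 in MV4-11 and 1.1 to 1.14 in OCI-AML3. On chromosome 6 it was 1.07 to 1.09 in MOLM13, against 0.939 to 0.954 in MV4-11 and 0.954 to 0.989 in OCI-AML3. On chromosome 13 it was 0.935 to 0.957 in MOLM13, against 0.883 to 0.9 in MV4-11 and 0.731 to 0.824 in OCI-AML3. On chromosome 18 it was 0.756 to 0.807 in MOLM13, against 0.811 to 0.845 in MV4-11 and 0.782 to 0.85 in OCI-AML3. Across the 22 chromosomes the members' share and the ratio of backgrounds (MOLM13 over the other lines) had a Pearson correlation of 0.597 and a Spearman correlation of 0.656. Each point comes from the same 12 libraries and is given as a description with no p. Copy number was not measured, and its part in the members was not tested.

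**Figure D4:**
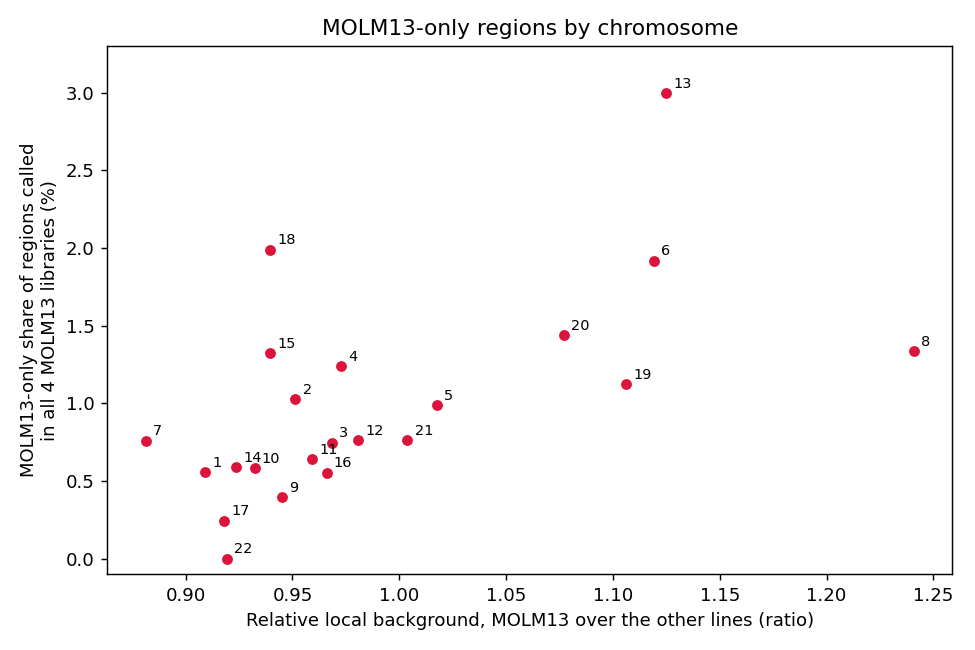
Each point is 1 of 22 chromosomes, labelled by its number: the x axis is the local background of MOLM13 over that of the other lines (ratio) and the y axis the MOLM13-only share (%) of regions called in all 4 MOLM13 libraries. Chromosomes 13 and 6 lie highest among those with a ratio over 1, and chromosome 8 lies farthest right with 1.34%.

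The design asks what VTP50469 did at these sites in MOLM13, a comparison that the rule did not use, since it required a peak in both arms. That requirement also removes any region that the compound closed or opened outright. The fold of each region was ranked within its library, turned into a normal score and compared between 2 VTP50469 and 2 control libraries with limma over all 40614 regions. None of the 408 members passed after Benjamini-Hochberg adjustment over all regions (0 called), and neither did any other region (0%). The smallest adjusted p in limma was 0.878. At an unadjusted p under 0.05, 15 members were lower with VTP50469, or 3.68%, against 2.66% of all regions, and 10 were higher, or 2.45%, against 2.95% of all regions. The members' median shift was −0.03 normal score units, against −0.01 for all regions, and its SD over members was 0.63, against 0.55. Under the alternative settings and without each library, 2.94% to 5.88% of members were lower, against 1.01% to 2.98% of all regions, and 1.47% to 5.64% were higher, against 2.04% to 4.34%, with 0 members passing after adjustment. With the replicate block 5.15% were lower, against 2.98% of all regions.

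**Figure D5:**
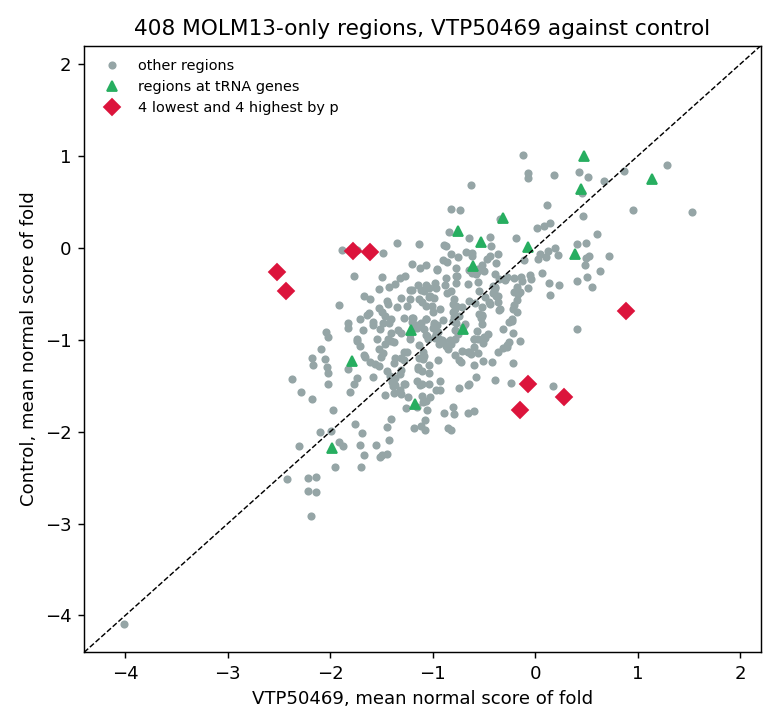
Mean normal score of fold of the 2 VTP50469 libraries (x axis) against that of the 2 control libraries (y axis) of MOLM13 for the 408 members, with equality as a dashed line. Regions at tRNA genes (green triangles) lie on both sides of the line, and the 4 lowest and 4 highest members by p are red diamonds. Distance from the line is the size of the shift, and members with a larger spread between libraries can lie as far out.

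The members with the smallest p values rested on few reads. The lowest of all was a region between genes near LOC646736 (chr2:226115086-226115345), with folds of 3.32 and 3.63 in the VTP50469 libraries and 5.05 and 9.13 in the control libraries. Its reads were 6 and 7 with VTP50469, against 8 and 16 in controls, and its shift was −2.25 ± 0.52 (SE, limma, adjusted p = 0.878). The other 3 on the low side lay in SAMD12 (folds 4 and 4.45 with VTP50469, against 6.93 and 7.6 in controls), CFAP20DC (4.25 and 4.62, against 7.02 and 7.42) and COL15A1, a collagen gene (3.89 and 3.23, against 4.85 and 8.28). In all 4 both VTP50469 libraries were below both control libraries.

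On the high side the first was a region between genes near LINC01713 (chr20:6707457-6707895). It had folds of 9.68 and 8.24 and 21 and 16 reads in the VTP50469 libraries, against 4.21 and 4.29 and 7 and 7 reads in the control libraries, with a shift of 1.9 ± 0.46 (SE, limma, adjusted p = 0.878). PRP4K, a kinase of the spliceosome, held a region (chr6:4059194-4059506) with folds of 9.73 and 13.6 in the VTP50469 libraries and 5.1 and 6.4 in the control libraries. The others lay near FGFBP1, a carrier of fibroblast growth factors (8.03 and 6.89 with VTP50469, against 4.18 and 4.04 in controls), and in the lncRNA gene LOC105378178 (6.49 and 9.25, against 4.88 and 4.04). None of the 8 lay in the locus of a gene of the lists above. They were picked as the ends of the ranking, and none passed the test.

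Among the sites described above, shifts went either way. The ADPRHL1 promoter had a shift of −0.06 ± 0.47 and the MCTP2 promoter of −0.36 ± 0.46 (SE). The 4 DACH1 gene-body members had shifts of −0.15, 0.82, −0.23 and 0.44. Of the 14 members at tRNA genes 9 had a negative and 5 a positive shift, with a median of −0.26 and a smallest unadjusted p of 0.0653 in limma, so 0 of the 14 had an unadjusted p under 0.05 (background 2.66% lower and 2.95% higher).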

How the data were processed

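Bulk ATAC-Seq was done on 12 libraries. MACS2 2.1.0 made the deposited peak lists, 1 per library and with no pooling. The labels also name Trimmomatic 0.33, Bowtie 1.1.2, bcl2fastq 2.17 and deepTools, with hg38 as the build; another aligner stands in the supplementary methods. Read-end shift, duplicate handling and peak threshold are not given in the sources used here. Each peak's score, as deposited, follows its −log10 q. Its ratio, as deposited, is a fold: reads at the summit over those of the library's own background nearby. Its −log10 p and −log10 q were computed by the authors' caller at the summit. The position of the summit is deposited as an offset in bp. Libraries were not normalised to each other, so the test used ranks within a library, and folds are printed as listed.

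Sequencing totals are unknown. Whole numbers of summit reads were sought that gave the listed fold (1 read added to both terms) and, within 0.001, the listed Poisson −log10 p. At least 99.99% of peaks in a library had one. Gene positions, tRNA genes and promoter windows came from RefSeq (GRCh38.p14). The strand of 5238 of the 10953 genes outside the promoter table was taken from GENCODE by symbol, and 40198 start sites were used. The promoter table lacks all of chromosome 8. Genes there had at most 1 start site, the end of the annotated gene, and genes without a strand had none. Promoter shares and distances to start sites on chromosome 8 are therefore less complete. A region was named for a start site within 1 kb, else for the gene body, else for the nearest start site. A locus was the gene with 5 kb on each side. Only the strongest peak of a region in a library was used. Arms were compared with limma 3.58.1 (R 4.3.3, moderated, two-sided, Benjamini-Hochberg over 40614 regions), and intervals of shares are exact binomial at 95%. Merging and fit were tested on simulated data. Motif searches around the summits of members away from start sites were not run.

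Members, lists and alternatives were chosen with earlier results of these data known. Named members were the 12 with the highest lowest −log10 q, the 8 strongest at protein-coding promoters, the 8 genes whose loci held most members, the 6 groups within 20 kb with most members (ties by strength), every list gene with a member, and the 4 lowest and 4 highest by p under VTP50469. SPAG6, NCKAP1 and the tRNA genes were added after their values were seen.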

Additional observations from a re-analysis of the deposited data

How the results depend on the processing

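The number of MOLM13-only regions was 353 when every peak had to have a −log10 q of at least 3, 398 when peaks within 100 bp were merged, 295 when no other-line peak was allowed within 1 kb and 415 with chromosome X. It was 96 when MOLM13 peaks needed a −log10 q of at least 5 and all peaks of the other lines were kept, and the promoter share was then 16.7%; the cause was not tested. Leaving out each library in turn, which loosens the rule, gave 424 to 721 regions, with 721 without control replicate 1 and 620 without VTP50469 replicate 1 of MOLM13. The promoter share was 9.07% to 13.5% with promoters of 500 bp and 2 kb. The number of members at tRNA genes, with alternatives chosen after seeing the data, was 10 to 15 under the other settings and 14 to 16 without each library. For VTP50469 against control, 0 members passed in limma under all 11 alternatives, leaving out each MOLM13 library among them (0 in each; the lone library of an arm is then assumed to vary like the others). At an unadjusted p under 0.05 there were 12 to 24 members lower (2.94% to 5.88%, against 1.01% to 2.98% of all regions) and 6 to 23 higher (1.47% to 5.64%, against 2.04% to 4.34%). The share lower was highest without VTP50469 replicate 1 (5.88%, against 2.37%), and with scores of −log10 q it was 5.64%, against 2.88%. Without control replicate 1, 23 members were higher (5.64%, against 3.53%). With the replicate block 0 passed, with 21 lower (5.15%, against 2.98% of all regions) and 12 higher (2.94%, against 3.24%). Libraries share only a number: the deviations of same-numbered libraries correlated at 0.03 over all regions and −0.14 over the members. Loci of 50 kb added 1 member each to the T and NK cell and B cell lists and 2 to the myeloid factors, and within 5 kb of start sites no list held a member.

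Depth limits these results. Members rest on a median of about 10 summit reads, and the lowest 1% of a library's peaks on at most 4 or 5. Absence of a peak in MV4-11 or OCI-AML3 is thus not absence of open chromatin. With 2 libraries an arm and lines of 1 donor each, line and donor, and for MV4-11 also medium, cannot be told apart. Motif alternatives with windows of 50 and 200 bases around summits were not run.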
